A study of Mus musculus with 11 samples.

Results

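The genes that make, bind, sense and break down retinoic acid were followed through the RNA and the histone marks of the embryonic mouse kidney. They were the 3 retinaldehyde dehydrogenases Aldh1a1, Aldh1a2 and Aldh1a3, the 2 cellular retinoic acid binding proteins Crabp1 and Crabp2, the 3 retinoic acid receptors Rara, Rarb and Rarg, and the 2 degrading enzymes Cyp26a1 and Cyp26b1. These 10 genes were chosen as the main steps of the pathway, out of 33468 protein-coding and long noncoding genes for which a start position could be set. Their RNA was found through the RefSeq transcripts of the RNA table, and their marks through peaks within 1 kb of the gene start or over the gene body.

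The series held 11 samples, each the only member of its group, so there were no replicates and no spread, test or p-value could be given. RNA was measured in metanephric mesenchyme (MM) and in ureteric bud (UB), taken by hand dissection of E11.5 embryos of wild-type C57BL/6 mice. Metanephric mesenchyme holds the nephron progenitors together with stromal and vascular precursors, and the ureteric bud is the epithelial tube that branches into the collecting ducts. The trimethylations of histone H3 at lysine 4 (H3K4me3, found at active or poised gene starts) and lysine 27 (H3K27me3, laid down by Polycomb complexes at silenced or poised genes) were mapped in 3 populations, as 1 peak list each. Cap mesenchyme was the Cited1-RFP+ fraction of E18.5 kidneys carrying Cited1nuc-TagRFP-T, a line begun in (C57BL/6 x DBA)F1 mice and then kept on C57BL/6J (N5). Ureteric epithelium was the Hoxb7-GFP+ fraction of E15.5 kidneys carrying Hoxb7myr-Venus/+, begun in (C57BL/6J x CBA/J)F2 mice and bred on C57BL/6J. The reporters are named for the Cited1 and Hoxb7 genes, and the sorted cells are those in which the reporter was on. RNA of the sorted cells was not measured, so whether the genes themselves were on is not known here. The third population was E14, a wild-type embryonic stem (ES) cell line from strain 129/Ola at passage 15, which is a single line. RNA and chromatin thus came from different ages, and RNA of ES cells was not analysed here.

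Retinoic acid is made from vitamin A in successive oxidation steps, of which the retinaldehyde dehydrogenases carry out the last. It enters the nucleus, partly on binding proteins, and there switches on genes through receptors that pair with retinoid X receptors on response elements in DNA, while enzymes of the Cyp26 family break it down. In the mouse kidney, retinoic acid made by Aldh1a2 in stromal cells is known to act through receptors to keep Ret expressed in the ureteric bud, on which branching depends. Fewer cells of a type and less RNA per cell cannot be told apart in these bulk samples.

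Promoter sequences that matched the letters of a retinoic acid response element are shown first. A retinoic acid receptor binds best to 2 half-sites in direct repeat with 5 bases between them (a DR5 element), and promoter windows were searched on both strands for any 2 half-sites in that arrangement (the half-sites being AGGTCA, the related AGTTCA, the related GGGTCA and the related GGTTCA). The windows hold 250 bases before and 50 bases after a RefSeq start, on GRCm38.p6, which is mm10. Of the 10 genes, 8 matched the RefSeq promoter table, with 13 windows; Aldh1a3 and Crabp2 had none. A DR5 was found in 2 of these 13 windows and in 32 of 32851 windows over all genes, or 0.0974%. Both are printed 5′ to 3′ on the strand of the gene, with the element in capitals. The Rarb window lies on the minus strand at chr14:16575427-16575726, and its element, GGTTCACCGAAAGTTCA, runs from base -53 to base -37 relative to the start. The Cyp26a1 window lies on the plus strand at chr19:37697558-37697857, and its element reads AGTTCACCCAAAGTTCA on the opposite strand, from base -32 to base -16 relative to the start.
Rarb: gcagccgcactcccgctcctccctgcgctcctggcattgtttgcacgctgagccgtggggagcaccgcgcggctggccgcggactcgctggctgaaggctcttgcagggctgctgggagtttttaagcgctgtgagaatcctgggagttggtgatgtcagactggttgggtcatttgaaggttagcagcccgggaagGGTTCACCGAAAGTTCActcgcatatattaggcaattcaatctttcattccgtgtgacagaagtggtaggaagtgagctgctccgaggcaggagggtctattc
Cyp26a1: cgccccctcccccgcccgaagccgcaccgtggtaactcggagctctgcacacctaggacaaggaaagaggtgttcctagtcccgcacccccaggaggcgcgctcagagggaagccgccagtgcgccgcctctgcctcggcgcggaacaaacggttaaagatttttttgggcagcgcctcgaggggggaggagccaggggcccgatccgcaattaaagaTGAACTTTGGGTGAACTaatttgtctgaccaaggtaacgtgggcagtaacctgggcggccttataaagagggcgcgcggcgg

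The same repeats with 1 or 2 bases between half-sites, found in 0.222% and 0.268% of all windows, were in none of the 13. A match is a description of the letters, and no binding was measured. Both elements sat under H3K4me3 in all 3 populations, as given below for each gene.

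Synthesis enzymes differed in base composition at their starts, which is shown with each CG dinucleotide in capitals. The Aldh1a2 window, chr9:71215539-71215838 on the plus strand, held 50 CG dinucleotides, which put it at the 99.3 percentile of all windows. The window at the inner start of Aldh1a1, chr19:20601718-20602017 on the plus strand, held 1, at the 14.1 percentile. The median over all windows was 7.
Aldh1a2: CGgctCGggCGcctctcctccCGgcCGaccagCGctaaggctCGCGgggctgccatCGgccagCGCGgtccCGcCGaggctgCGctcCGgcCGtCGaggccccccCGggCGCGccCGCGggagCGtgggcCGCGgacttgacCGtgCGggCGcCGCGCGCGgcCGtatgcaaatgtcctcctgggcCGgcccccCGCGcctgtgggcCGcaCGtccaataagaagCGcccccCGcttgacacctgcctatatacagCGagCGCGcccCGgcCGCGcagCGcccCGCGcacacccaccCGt
Aldh1a1: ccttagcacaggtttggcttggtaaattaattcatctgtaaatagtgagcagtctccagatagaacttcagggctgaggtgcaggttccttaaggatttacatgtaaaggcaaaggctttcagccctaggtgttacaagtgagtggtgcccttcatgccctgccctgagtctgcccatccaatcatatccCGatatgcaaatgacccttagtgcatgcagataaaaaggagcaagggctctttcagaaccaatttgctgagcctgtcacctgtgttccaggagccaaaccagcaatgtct

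The other windows lay between these values. Cyp26a1 held 26 CG dinucleotides, Rara 5 to 21 over its 4 windows, Crabp1 and Rarb 17 each, Rarg 10 and 12, Cyp26b1 9 and the outer start of Aldh1a1 3.

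The checks of the labels used marker genes. Of 8 nephron progenitor markers, 6 were at least 4-fold higher in MM, and all 9 ureteric markers were at least 4-fold higher in UB, with a summed level of 15.48 FPKM in MM and 2407 FPKM in UB. The progenitor marker Cited1, on whose reporter the cap mesenchyme was sorted, was instead at 2.78 FPKM in MM and 8.34 FPKM in UB. Stromal markers were at least 4-fold higher in MM for 6 of 7 (summed level 196 FPKM in MM, 2.30 FPKM in UB), and endothelial markers for 2 of 5 (25.8 FPKM in MM, 2.95 FPKM in UB). Blood markers summed to 0.689 FPKM in MM and 0.174 FPKM in UB, and Pou5f1 and Nanog were listed at 0 in both. In the chromatin, H3K4me3 marked the starts of 8 of 8 progenitor markers in cap mesenchyme, 7 of 8 in ureteric epithelium and 8 of 8 in ES cells. It marked 7 of 9 ureteric markers in cap mesenchyme, 7 in the ureteric epithelium and 9 in ES cells, 5 of 7 stromal markers in cap mesenchyme, 5 in the ureteric epithelium and 7 in ES cells, and 1 of 5 endothelial markers in cap mesenchyme, 5 in the ureteric epithelium and 3 in ES cells. Hoxb7, whose reporter marked the sorted ureteric epithelium, had no peak of either mark at its start there, and Cited1 had H3K4me3 alone in cap mesenchyme. Of 5 pluripotency markers, 1 was marked in cap mesenchyme, none in the ureteric epithelium and 4 in ES cells.

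The RNA levels are FPKM (fragments scaled by transcript length and by all mapped fragments), summed over a gene's transcripts. FPKM are scaled by length, so levels may be compared between genes. Differences are MM minus UB of log2(FPKM + 1), a scale on which the changes of low genes come out too small. Genes that reached 1 FPKM in either tissue were compared (called tested below), and were called 4-fold different at a log2 difference of 2 or more with at least 2 FPKM in the higher tissue. Of 11275 genes so tested, 1.92% were 4-fold higher in MM and 4.26% were 4-fold higher in UB. Of the 9 retinoic acid genes tested, 2 were 4-fold higher in MM (Aldh1a2 and Crabp1) and 2 were 4-fold higher in UB (Aldh1a1 and Aldh1a3). Their median log2 difference was -0.16, and that of all tested genes was -0.47. Over the 9333 genes at 1 FPKM or more in both tissues the median was -0.46, so that an average gene had the lower FPKM in MM.

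**Figure D1:**
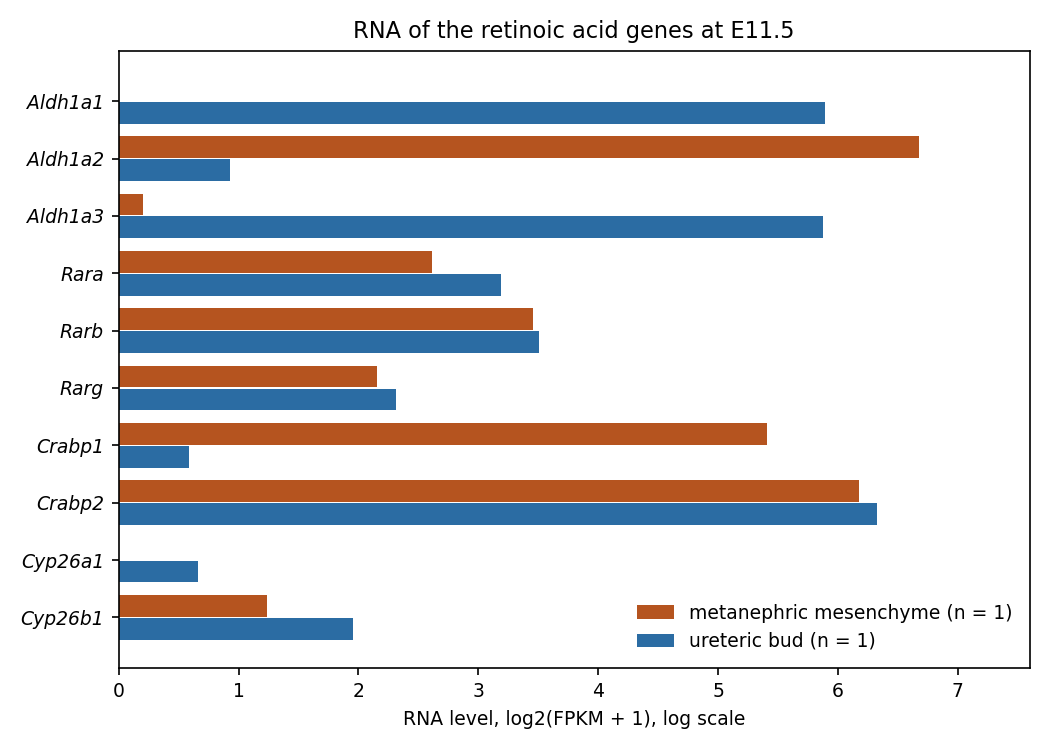
RNA level of each gene as log2(FPKM + 1), on a log scale, in metanephric mesenchyme (upper bar) and ureteric bud (lower bar), 1 library each. Aldh1a2 and Crabp1 stand high in metanephric mesenchyme alone, Aldh1a1 and Aldh1a3 in ureteric bud alone, and Crabp2 in both.

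Each of the 3 retinaldehyde dehydrogenases was abundant in 1 of the tissues and close to or at 0 in the other. Aldh1a2, the enzyme that supplies most of the retinoic acid of the early embryo, was at 101 FPKM in MM (authors' interval 88.4 to 114) and 0.901 FPKM in UB (0.486 to 1.32). The MM level was 112 times that of UB, a log2 difference of 5.75, and stood at the 98.8 percentile of the genes that reached 1 FPKM. The authors' intervals come from Cuffdiff and did not overlap. They cover the estimate within a library, not the spread between embryos.

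Aldh1a1, the family member best known from the adult eye and liver, showed the opposite pattern. It was listed at 0 in MM and was at 58.2 FPKM in UB (51.4 to 65.1), a log2 difference of -5.89. Aldh1a3, known from the eye and nasal region of the embryo, was at 0.153 FPKM in MM and 57.8 FPKM in UB, a log2 difference of -5.67. Its UB level was split between the RefSeq transcript at 43.5 FPKM (38.3 to 48.7) and an assembled variant of it at 14.3 FPKM (8.86 to 19.7), whereas in MM the transcript was at 0.153 FPKM (0.0346 to 0.272) and the variant was listed at 0. The UB levels of Aldh1a1 and Aldh1a3 stood at the 95.0 and 94.9 percentiles. Summed over the 3 enzymes, neither tissue lacked dehydrogenase RNA, but the enzyme differed.

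The stromal markers, at 196 FPKM in MM and 2.30 FPKM in UB in sum, moved with Aldh1a2, as did the progenitor markers at 213 FPKM in MM and 35.0 FPKM in UB. The ureteric markers moved with Aldh1a1 and Aldh1a3. No stromal marker was listed at 0 in either tissue, while the progenitor marker Osr1 was listed at 0 in UB and the ureteric marker Wnt9b in MM. Their part in the result was not tested.

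The binding proteins differed from each other, with Crabp1 high in MM alone and Crabp2 high in both tissues. Crabp1, which carries retinoic acid in the cytoplasm and is tied to its breakdown, was at 41.5 FPKM in MM (34.2 to 48.8) and 0.499 FPKM in UB, a ratio of 83.2 and a log2 difference of 4.83. In UB the level was made of transcripts at 0.355 and 0.144 FPKM whose authors' intervals both reach 0. Crabp2, which hands retinoic acid to the receptors in the nucleus, was at 71.3 FPKM in MM (60.8 to 81.7) and 79.2 FPKM in UB (68.5 to 89.9). These intervals overlapped, and the difference was -0.15, or 0.41 after both libraries were rescaled to the same median, so its sign depended on the scaling. Crabp2 stood at the 97.9 percentile in MM and the 96.9 percentile in UB.

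Receptor RNA was present in both tissues at moderate levels, in the same order. Rarb, the receptor that is itself a classic retinoic acid target, was at 9.99 FPKM in MM and 10.4 FPKM in UB, a log2 difference of -0.05. Rara, the broadly expressed receptor, was at 5.13 FPKM in MM and 8.11 FPKM in UB (-0.57). Rarg, the receptor known from skin and skeleton, was at 3.45 FPKM in MM and 3.97 FPKM in UB (-0.16). None of the 3 was 4-fold different, and after rescaling to the same median the differences were 0.47 for Rarb, -0.09 for Rara and 0.29 for Rarg, so those of Rarb and Rarg changed sign. With 1 library a tissue, the distance between neighbours in this order could not be set against a spread.

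The receptor transcripts were grouped by the start assigned to them. All Rarb RNA fell on 2 transcripts that shared a start, at 6.25 and 3.73 FPKM in MM and 4.46 and 5.91 FPKM in UB. Both transcripts assigned to the other start were listed at 0 in both tissues. The authors' intervals of the transcript at 6.25 FPKM in MM were 4.65 to 7.86 in MM and 3.20 to 5.73 in UB, and overlapped. For Rara, the most abundant transcript was at 2.12 FPKM in MM (1.27 to 2.97) and 4.22 FPKM in UB (3.01 to 5.43), intervals that did not overlap. Those intervals were not rescaled, and the difference of the whole gene went from -0.57 to -0.09 after rescaling to the same median. The other Rara transcripts were at 1.14 FPKM or less in MM and 2.44 FPKM or less in UB. For Rarg, the leading transcript was at 2.85 FPKM in MM and 2.91 FPKM in UB.

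Both breakdown enzymes had low RNA in both tissues. Cyp26a1 is the main retinoic acid hydroxylase of the early embryo and a sensitive target of retinoic acid. It was listed at 0 in MM and was at 0.584 FPKM in UB (0.191 to 0.977), under the 1 FPKM needed to be tested. All of that UB level fell on a predicted RefSeq transcript, and the curated transcript was listed at 0 in both tissues. Cyp26b1, the hydroxylase known from limb, hindbrain and gonad, was at 1.36 FPKM in MM and 2.87 FPKM in UB, a log2 difference of -0.71. Its main transcript was at 0.903 FPKM in MM (0.520 to 1.29) and 2.01 FPKM in UB (1.44 to 2.58), with no overlap of the intervals. Those intervals were not rescaled, and after rescaling to the same median the difference of the whole gene was -0.36. Among genes that reached 1 FPKM, Cyp26b1 stood at the 6.36 percentile in MM and the 19.4 percentile in UB.

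Of 37 further genes of vitamin A transport, retinol oxidation, receptor pairing and receptor cofactors, 21 were tested and none was 4-fold different in either direction, where 1.92% of all genes tested were 4-fold higher in MM and 4.26% were 4-fold higher in UB. Their median log2 difference was -0.25 and the values ran from -1.20 to 1.70. Of the genes that stayed under the call on this scale, Adh1, an alcohol dehydrogenase, was at 2.34 FPKM in MM and 0.03 FPKM in UB, and the receptor coactivator Ncoa3 was at 1.81 FPKM in MM and 0.0046 FPKM in UB, 2 genes picked out after their values were seen. The retinoid X receptors, the partners of the retinoic acid receptors, were led by Rxra at 5.29 FPKM in MM and 10.9 FPKM in UB (-0.92) and Rxrb at 6.72 FPKM in MM and 9.54 FPKM in UB (-0.45). Rxrg was at 0.230 FPKM in MM and 0.046 FPKM in UB. The following genes were likewise picked out afterwards. Rdh10, which makes retinaldehyde from retinol, was at 17.7 FPKM in MM and 15.2 FPKM in UB. Dhrs3, which reverses that step, was at 24.6 FPKM in MM and 15.1 FPKM in UB. Stra6, a cell-surface receptor for vitamin A, was at 6.28 FPKM in MM and 9.06 FPKM in UB.

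**Figure D2:**
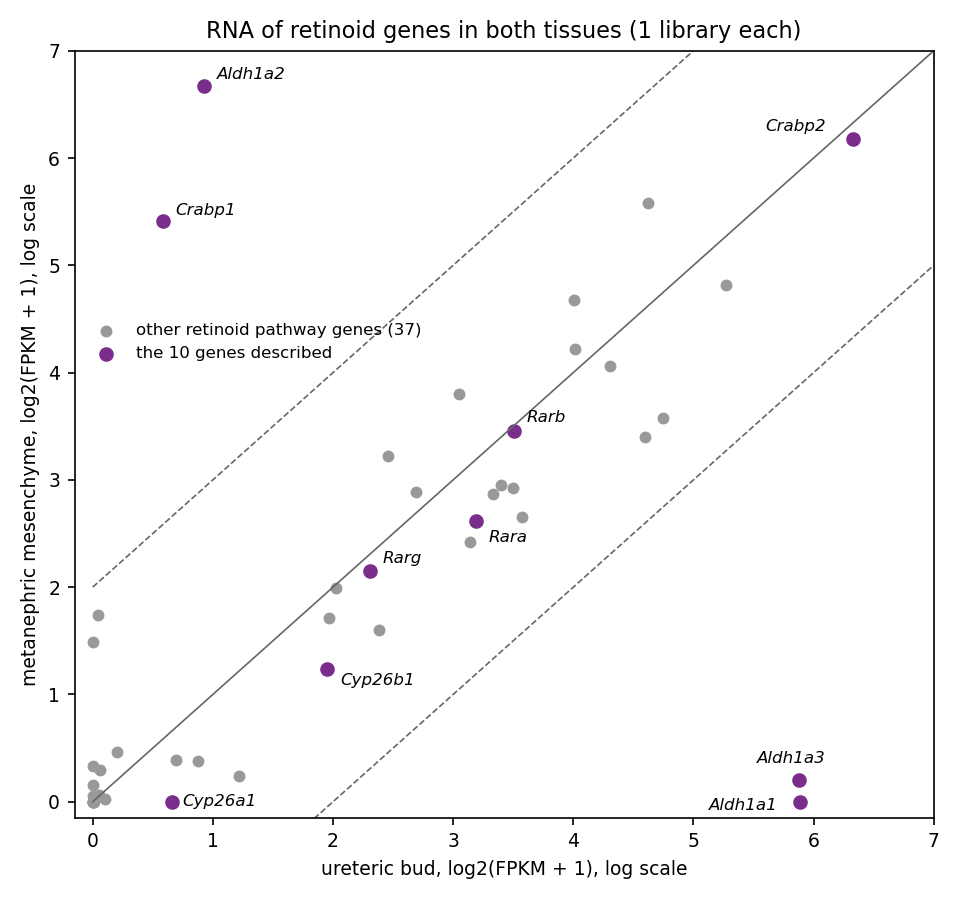
RNA of metanephric mesenchyme (vertical) against ureteric bud (horizontal), both as log2(FPKM + 1) on log scales, 1 library each. The solid line marks equal levels and the dashed lines a log2 difference of 2; only Aldh1a1, Aldh1a2, Aldh1a3 and Crabp1 lie beyond the dashed lines, and all 37 other pathway genes lie between them.

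Genes known to respond to retinoic acid were counted in a list of 15, which includes Rarb, Cyp26a1 and Crabp2 and shares Dhrs3, among others, with the pathway list. Of 10 tested, 3 were 4-fold higher in MM and 1 was 4-fold higher in UB, with a median log2 difference of 0.71. Of all genes tested, 1.92% were 4-fold higher in MM and 4.26% in UB. Hoxa5, a Hox gene of the anterior trunk, was at 20.8 FPKM in MM and 3.21 FPKM in UB (2.37). The homeobox genes Meis1 and Meis2 were at 62.4 and 152 FPKM in MM and at 0.288 and 1.98 FPKM in UB, log2 differences of 5.62 and 5.69. Ret, the receptor that drives bud branching, was at 0.341 FPKM in MM and 72.8 FPKM in UB (-5.78). Meis1 also stands in the stromal marker list and Ret in the ureteric one.

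At the outermost starts, H3K4me3 lay at 7 of the 10 genes in cap mesenchyme, 7 in the ureteric epithelium and 7 in ES cells. The same call was made at 50.3% of all genes in cap mesenchyme, 46.4% in the ureteric epithelium and 55.8% in ES cells. The 7 were the same in each population and left out Aldh1a1, Rarb and Cyp26b1. At this start, no gene of the 10 had H3K4me3 in cap mesenchyme but not ureteric epithelium (4.74% of all genes) or the reverse (0.816%). The starts of the RefSeq promoter table were then counted as well, which need not be all starts of a gene. H3K4me3 so lay at 8 genes in cap mesenchyme, 9 in the ureteric epithelium and 8 in ES cells. The same call was then made at 52.5%, 48.6% and 57.8% of all genes in that order. Rarb was added in all 3 populations and Aldh1a1 in ureteric epithelium alone. H3K27me3 lay at the starts of 3 of the 10 genes in cap mesenchyme, 5 in the ureteric epithelium and 5 in ES cells, against 7.02% of all genes in cap mesenchyme, 9.91% in the ureteric epithelium and 9.71% in ES cells. It was at Aldh1a3, Crabp1 and Cyp26a1 in all 3 populations, and at Aldh1a2 and Crabp2 in ureteric epithelium and ES cells. Every start with H3K27me3 also had H3K4me3, so the same 3, 5 and 5 genes carried both marks, a state found at 4.90% of all genes in cap mesenchyme, 5.24% in the ureteric epithelium and 8.98% in ES cells.

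The comparison of the sorted kidney populations turned on Aldh1a2 and Crabp2, the 2 genes of the 10 with H3K27me3 in ureteric epithelium and not cap mesenchyme (5.03% of all genes). None had it in cap mesenchyme and not ureteric epithelium (2.14% of all genes). The ureteric list of H3K27me3 peaks was the longer, with 108394 peaks in cap mesenchyme, 144362 in the ureteric epithelium and 12879 in ES cells. With the lists shortened to equal length by score, neither gene kept its ureteric call, and the genes with H3K27me3 at the start were the same 3 in both kidney populations. Where a peak needed a score of 50 or more, Crabp2 kept the call and Aldh1a2 did not. H3K27me3 at the starts of marker genes differed between the populations as well. It lay at 3 of 7 stromal markers in cap mesenchyme, 6 in the ureteric epithelium and 5 in ES cells, and at none of 8 progenitor markers in cap mesenchyme, 3 in the ureteric epithelium and 5 in ES cells. It lay at 6 of 9 ureteric markers in cap mesenchyme, 5 in the ureteric epithelium and 7 in ES cells. H3K4me3 lay at 1 of 5 endothelial markers in cap mesenchyme, 5 in the ureteric epithelium and 3 in ES cells, and H3K27me3 at 1, 1 and 2 of them in the same order. The part of other cell types in the result was not tested.

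**Figure D3:**
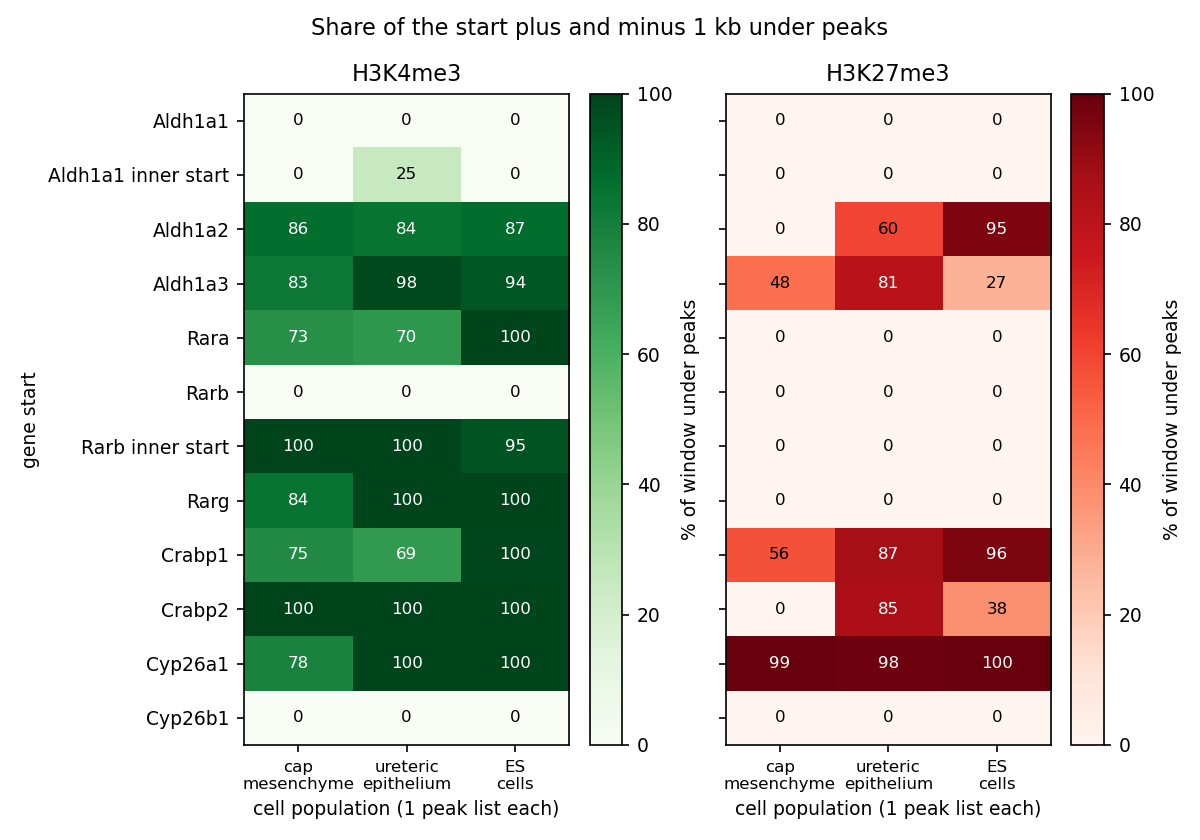
Percent of the window within 1 kb of each start that lay under H3K4me3 (left) or H3K27me3 (right) peaks, in cap mesenchyme, ureteric epithelium and ES cells, 1 peak list each. Aldh1a2 and Crabp2 are at 0% for H3K27me3 in cap mesenchyme but not in ureteric epithelium or ES cells; Rarb has H3K4me3 only at its inner start.

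At Aldh1a2 (chr9:71215789-71296243, plus strand), H3K4me3 peaks covered 86.3% of the start window in cap mesenchyme, 84.1% in the ureteric epithelium and 87.4% in ES cells. The cap mesenchyme peak ran from -725 to 3766 bp relative to the start and scored 3100, the 92.6 percentile of its list. Scores are the authors' own and are ranked here only within a list. The lists differ in length, so percentiles of different lists, here and below, are not on the same scale. Of the cap mesenchyme H3K4me3 peaks, 13.6% score 3100 or more. The start peak ranked at the 87.0 percentile of the ureteric list and the 49.0 percentile of the ES cell list. H3K27me3 covered none of the window in cap mesenchyme, 59.9% in the ureteric epithelium and 95.3% in ES cells. The ureteric peak on the start ranked only at the 31.4 percentile of its list, but a second one, 1561 to 2100 bp into the gene, ranked at the 97.4 percentile. No H3K27me3 peak lay anywhere in the gene body in cap mesenchyme.

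Aldh1a3 (chr7:66390892-66427477, minus strand) carried both marks everywhere. H3K4me3 covered 82.8% of its start window in cap mesenchyme, 98.4% in the ureteric epithelium and 94.0% in ES cells, and H3K27me3 covered 48.3%, 80.6% and 27.5% of it in the same order. The H3K4me3 peak in ureteric epithelium was 3290 bp wide, against 1656 bp in cap mesenchyme and 1936 bp in ES cells. In cap mesenchyme and ES cells, H3K27me3 lay on both sides of the start and left the centre free, while in ureteric epithelium a peak of 1934 bp ran over the start itself. Its best H3K27me3 peak ranked at the 98.3 percentile of the cap mesenchyme list, 95.9 of the ureteric list and 79.7 of the much shorter ES cell list.

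Aldh1a1 (chr19:20492583-20643463, plus strand) had neither mark at its outermost start in any population. At the inner start, 109385 bp further in, a single H3K4me3 peak of 493 bp was found in ureteric epithelium, from -171 to 321 bp relative to that start, and none in cap mesenchyme or ES cells. That peak covered 24.6% of the window and was among the weakest of its list, at the 7.06 percentile of score. H3K27me3 did not touch either start, but the gene body held 9 peaks in cap mesenchyme and 13 in ureteric epithelium and none in ES cells. The strongest of them, at the 96.8 percentile in cap mesenchyme and the 98.2 percentile in ureteric epithelium, lay 78662 to 79671 bp into the gene in cap mesenchyme and 78253 to 78937 bp into it in ureteric epithelium. The long noncoding genes E030003E18Rik and C730002L08Rik overlap the gene and were listed at 0 and 0 FPKM in MM and 0 and 0.0250 FPKM in UB.

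**Figure D4:**
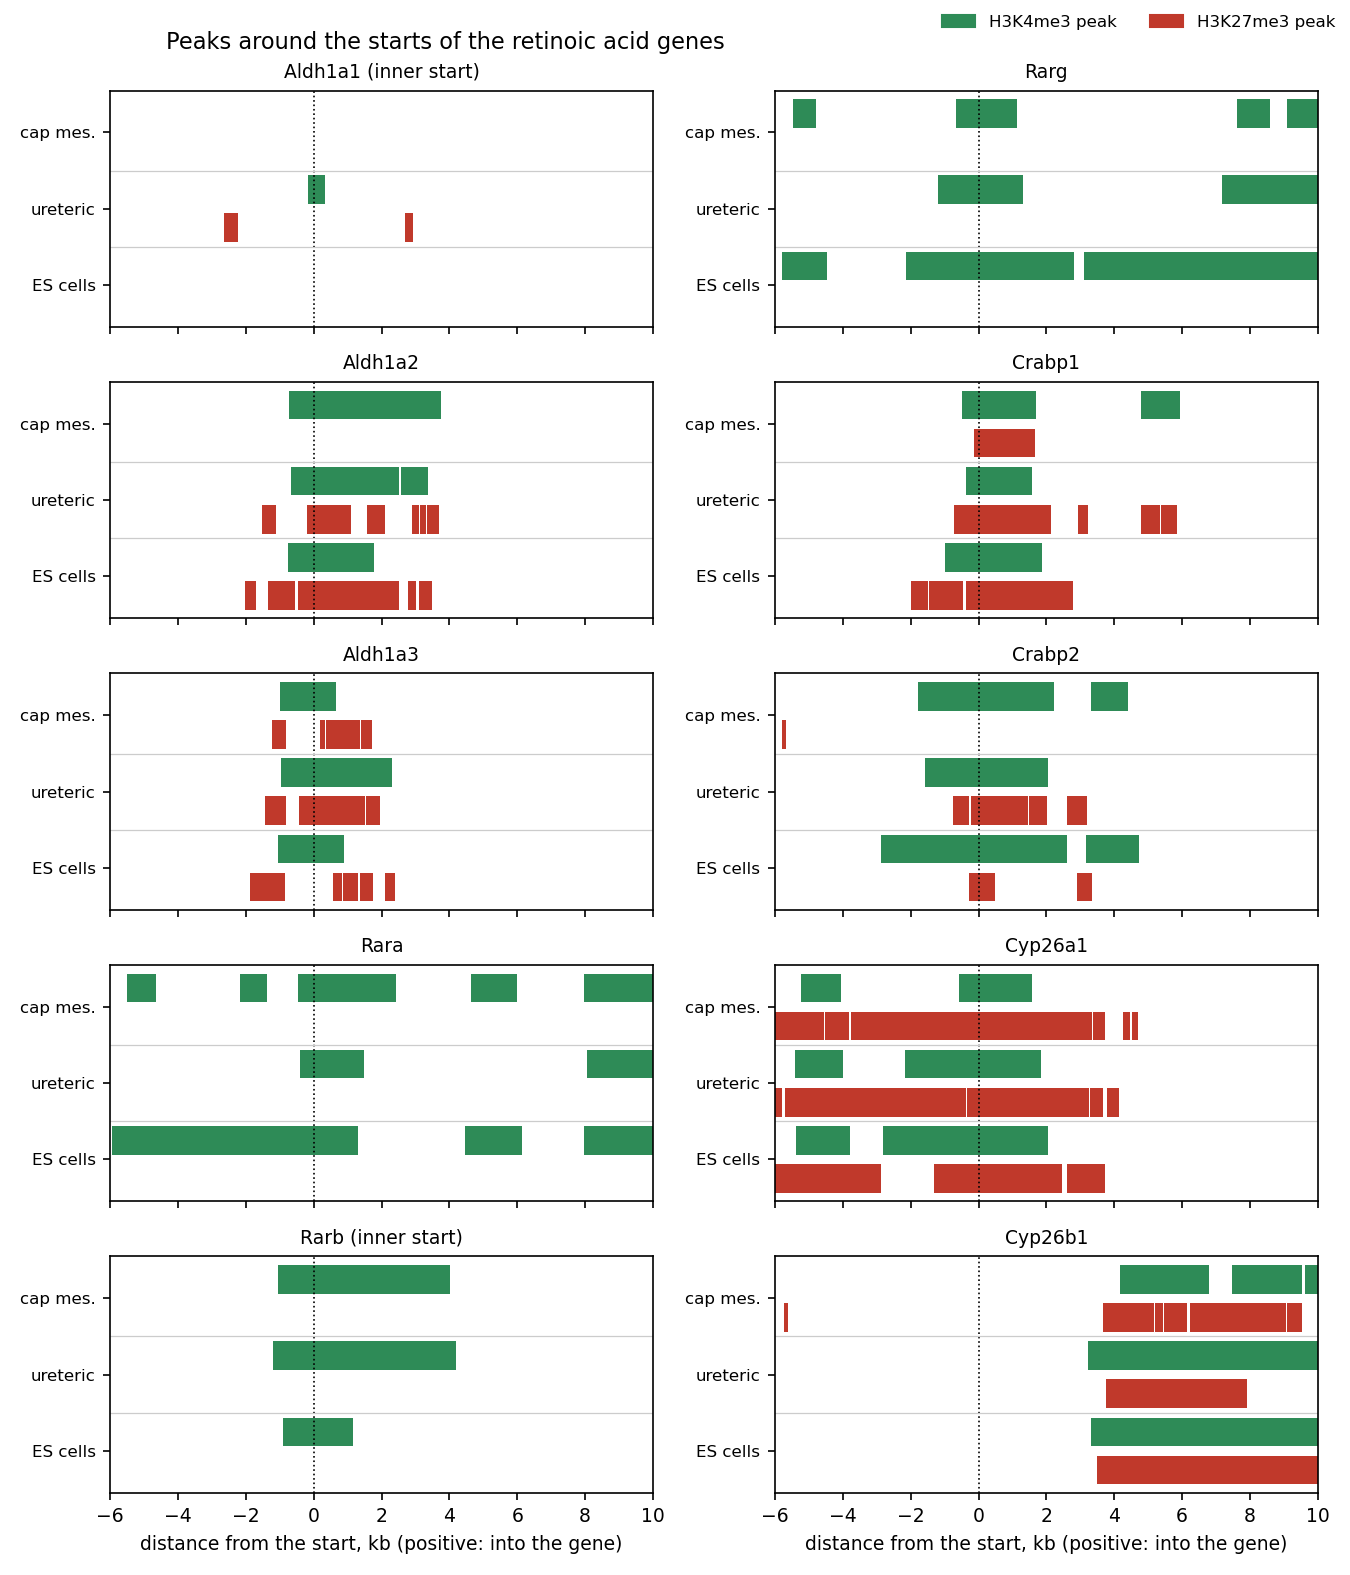
Deposited peaks of H3K4me3 (green) and H3K27me3 (red) from 6 kb before to 10 kb after the start of each gene, in cap mesenchyme, ureteric epithelium and ES cells, with distance in kb and positive values into the gene. Aldh1a2 and Crabp2 lack H3K27me3 at the start in cap mesenchyme, Rara, Rarb and Rarg lack it in all 3, and at Cyp26b1 the domain of both marks lies inside the gene. A short H3K27me3 peak of cap mesenchyme (124 bp) also lies before the Cyp26b1 start, from -5746 to -5623 bp.

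Crabp1 (chr9:54764748-54773110, plus strand) carried both marks in every population. H3K4me3 covered 75.0% of its start window in cap mesenchyme, 69.1% in the ureteric epithelium and 99.5% in ES cells, and H3K27me3 covered 56.4%, 86.8% and 95.6% in the same order. Its ureteric H3K4me3 peak ranked low in its own list, at the 23.1 percentile. Those of cap mesenchyme and ES cells ranked at the 62.2 and 81.0 percentiles of theirs. The best H3K27me3 peaks of Crabp1 ranked at the 99.0 percentile of the cap mesenchyme list, 99.0 of the ureteric list and 73.5 of the much shorter ES cell list. Peaks of H3K27me3 covered 19.8% of the body in cap mesenchyme, 41.8% in the ureteric epithelium and 33.2% in ES cells. Crabp1 RNA in E11.5 MM was thus high while cap mesenchyme of E18.5 carried both marks at the start.

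Crabp2 (chr3:87948693-87953372, plus strand) had H3K4me3 over the whole start window in all 3 populations. H3K27me3 covered none of the window in cap mesenchyme, 85.1% in the ureteric epithelium and 38.1% in ES cells. Its peaks ranked at the 85.7 percentile of the ureteric list and the 59.9 percentile of the ES cell list. Its RNA at E11.5 was 71.3 FPKM in MM and 79.2 FPKM in UB, so the difference in H3K27me3 between the later sorted populations had no counterpart of 4-fold size in the RNA.

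None of the 3 receptors had H3K27me3 at the starts examined, which was also true of Aldh1a1 and Cyp26b1. Rara (chr11:98927800-98974942, plus strand) had H3K4me3 over 73.2% of the outermost start window in cap mesenchyme, 70.0% in the ureteric epithelium and 100% in ES cells. Peaks covered the windows of its inner starts in the promoter table as well, at 55.0% or more in each population. Rarg (chr15:102234938-102257522, minus strand) had H3K4me3 over 84.0% of its outermost window in cap mesenchyme, and all of it in ureteric epithelium and ES cells. A broader domain lay over the inner start 11022 bp further in, as a peak of 3819 bp in cap mesenchyme, 7122 bp in the ureteric epithelium and 20872 bp in ES cells. The ES cell peak was wider than nearly all others of its list, at the 99.96 percentile of width, and H3K4me3 covered 98.6% of the Rarg body there, against 30.9% in cap mesenchyme and 37.3% in ureteric epithelium. Rara and Rarg had no H3K27me3 peak in the body in any population.

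Rarb (chr14:16430839-17082331, minus strand) is the longest of the genes at 651493 bp, and its outermost start was bare of both marks. The inner start, 506855 bp further in, is the start whose promoter is printed above with its DR5. Whether it is the start that carried the RNA was not tested. H3K4me3 covered 100% of that window in cap mesenchyme, 100% in the ureteric epithelium and 94.9% in ES cells. The peak was 5086 bp wide in cap mesenchyme, 5391 bp in the ureteric epithelium and 2044 bp in ES cells, and ranked at the 92.6, 98.3 and 85.1 percentiles of score in the same order. H3K27me3 was absent from this window in all 3 lists. Over the long body it appeared as 31 peaks in cap mesenchyme and 49 in ureteric epithelium, covering 1.04% and 2.42% of the gene, and no peak in ES cells.

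Of the breakdown enzymes, Cyp26a1 (chr19:37697738-37701536, plus strand) had the largest share of its start window and body under H3K27me3 of the 10 genes. At its start, H3K27me3 covered 99.3% of the window in cap mesenchyme, 98.2% in the ureteric epithelium and 100% in ES cells, and over the body 97.3%, 95.3% and 93.9%. The best of these peaks ranked at the 99.8 percentile in cap mesenchyme, 99.7 in the ureteric epithelium and 97.4 in ES cells. H3K4me3 covered 78.4% of the window in cap mesenchyme and all of it in ureteric epithelium and ES cells, and its peak ranked at the 51.0, 32.5 and 92.0 percentiles in the same order. The DR5 printed above lay under both marks in ureteric epithelium and ES cells, and in cap mesenchyme it lay under H3K4me3 and spanned a short gap between adjoining H3K27me3 peaks. The long noncoding gene Gm32342 starts in the same window on the other strand and was listed at 0 in MM and at 0.144 FPKM in UB.

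Cyp26b1 (chr6:84571414-84593908, minus strand) had no peak of either mark within 1 kb of the starts examined, which lay 98 bp apart. Its transcripts were assigned to more starts than were examined. A domain of both marks lay inside the gene. In ureteric epithelium, an H3K4me3 peak of 7395 bp began 3227 bp into the gene and an H3K27me3 peak of 4173 bp began 3746 bp in. In ES cells, the H3K4me3 peak of 7682 bp began 3311 bp in and the H3K27me3 peak of 6515 bp began 3486 bp in. In cap mesenchyme, H3K4me3 ran in pieces from 4161 bp into the gene and H3K27me3 came as 13 peaks. The best H3K27me3 peak ranked at the 99.3 percentile in cap mesenchyme, 99.1 in the ureteric epithelium and 99.4 in ES cells. Cyp26a1 and Cyp26b1 both carried H3K27me3 peaks at the 97.4 percentile or above of every list.

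Over the gene bodies, H3K4me3 touched 9 of the 10 genes in cap mesenchyme, 10 in the ureteric epithelium and 10 in ES cells, where it touched 58.0%, 52.5% and 65.7% of all genes. H3K27me3 touched 6 in cap mesenchyme, 8 in the ureteric epithelium and 6 in ES cells, where it touched 24.1%, 30.7% and 13.0% of all genes. In cap mesenchyme these were Aldh1a1, Aldh1a3, Rarb, Crabp1, Cyp26a1 and Cyp26b1, and ureteric epithelium added Aldh1a2 and Crabp2. A single base of overlap was enough for these counts. Where peaks had to cover at least 10% of the body, H3K27me3 remained at Crabp1, Cyp26a1 and Cyp26b1 in cap mesenchyme and at those and Crabp2 in ureteric epithelium, where this was so of 3.24% of all genes in cap mesenchyme and 5.47% in ureteric epithelium.

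Among the 37 other pathway genes, H3K27me3 lay at the starts of 4 in cap mesenchyme, 6 in the ureteric epithelium and 8 in ES cells, and H3K4me3 at 22, 22 and 26 in the same order. Over all genes, H3K27me3 lay at 7.02%, 9.91% and 9.71% of starts in that order, and H3K4me3 at 50.3%, 46.4% and 55.8%. Rbp4, the carrier of vitamin A in blood, and Ttr, which binds that carrier, had H3K27me3 in ureteric epithelium and not cap mesenchyme (5.03% of all genes). Rxrg carried both marks in all 3 populations, whereas Rxra and Rxrb carried H3K4me3 alone. Of the 15 response genes, 2 had H3K27me3 at the start in cap mesenchyme, 6 in the ureteric epithelium and 11 in ES cells. In ureteric epithelium and not cap mesenchyme, 4 of the 15 had it, against 5.03% of all genes. Crabp2, Hoxb1 and Meis1 were among these 4.

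For each 4-fold different gene, the genes most like it were those with the same marks at the start in all 3 populations and the smallest distance in log2(FPKM + 1) over the 2 RNA libraries. For Aldh1a2, with 469 other genes of the same marks, these were Vcan, a matrix proteoglycan, at 89.0 FPKM in MM and 0.886 FPKM in UB (distance 0.18), and Meis1 (0.89). For Crabp1, with 606 such genes, they were the stromal transcription factor Foxd1, at 22.9 FPKM in MM and 0.0301 FPKM in UB (0.99), and Twist1, a transcription factor of mesenchyme, at 16.5 FPKM in MM and 1.04 FPKM in UB (1.36). Aldh1a3 shared the marks of Crabp1, and among the nearest to it was Arg2, a mitochondrial arginase, at 0.0803 FPKM in MM and 29.5 FPKM in UB (0.95). For Aldh1a1, the match was among 11366 genes with neither mark at the outermost start. It left out the H3K4me3 peak at the inner start of Aldh1a1 in ureteric epithelium. Nearest was Septin4, a septin GTPase, at 3.62e-05 FPKM in MM and 27.2 FPKM in UB (1.07). Next was Ptpn3, a tyrosine phosphatase, at 0.768 FPKM in MM and 33.9 FPKM in UB (1.12).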

How the data were processed

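RNA was measured in 2 libraries of total RNA, and H3K4me3 and H3K27me3 by native ChIP-seq (unfixed chromatin cut with micrococcal nuclease) as 6 peak lists. Per the submitters' processing notes, the tools were Bowtie2, MACS, TopHat, Cufflinks and Cuffdiff on mm10. Versions, settings, the control used for each list and whether RNA counting used strand were not given in the sources read here, and the 3 input libraries were not analysed here.

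The authors deposited FPKM per transcript with an interval for each value, and per peak a score of their own, whose meaning was not given in the sources read here. Depth per sample is unknown from these files, so no counting intervals were given. Transcripts without a reference held 93.6% of the FPKM in MM and 93.9% in UB and were left out.

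Of 138486 transcripts, 106342 (76.8%) were paired with a RefSeq gene by accession, and FPKM were summed per gene with pandas 2.3.3 in Python 3.11.15. Starts, positions and promoter sequences came from RefSeq (GRCm38.p6), and the outermost start of a gene was its main start. For 1146 genes no strand was known and they were left out. A mark was called at a start where a peak overlapped the start plus and minus 1 kb by at least 1 bp. A pseudocount of 1 FPKM was used. All 10 retinoic acid genes were to be named, and from the lists those 4-fold different in RNA, those differing in H3K27me3 between the kidney populations, and the retinoid X receptors; other named genes are marked as such, and a few genes that these rules would name are not reported here. The genes and lists were chosen with earlier results of these data known. The calculations were tested on simulated data. Alternatives were other pseudocounts, scalings, windows, peak scores, list lengths and overlaps.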

Additional observations from a re-analysis of the deposited data

How the results depend on the processing

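Every choice was changed alone. The counts of 4-fold different genes among the 10 were the same in 8 of 8 alternatives. Leaving out the 2 FPKM minimum could not change any count. A log2 difference of 2 on this scale already needs more than 2 FPKM in the higher tissue. Over all genes these counts moved. With a pseudocount of 0.1 FPKM, those higher in MM went from 217 to 387 and those higher in UB from 480 to 805. With rescaled libraries they were 342 and 369. The start counts stayed within 1.5 times in 46 of 48. Some settings, here and for the body counts below, could not change a count. No H3K4me3 peak scored below 50, and equal list length left the shortest list of each mark as it was. H3K27me3 at the start fell to 3 of the 10 genes in ureteric epithelium at equal list length (4.39% of all genes). Aldh1a2 and Crabp2 dropped out there because fewer peaks were kept. It fell to 3 in ES cells (4.11% of all genes) when peaks had to cover 50% of the window. The body counts stayed in 20 of 24. When peaks had to cover at least 10% of the body, H3K27me3 stood at 3 genes in cap mesenchyme (3.24% of all genes) and 4 in ureteric epithelium (5.47%). H3K4me3 then stood at 6 in ureteric epithelium (20.9% of all genes) and 6 in ES cells (41.3%). Of 30 alternative RNA differences, 23 were counted as much the same and 7 as moved, none of the 4-fold ones changing sign. Small differences among the 23 did change sign. That of Rarb went from -0.05 to 0.47 with rescaled libraries and to 0.41 with the most abundant transcript only. That of Rarg went from -0.16 to 0.29 with rescaled libraries. With a pseudocount of 0.1 FPKM the log2 differences were 6.66 for Aldh1a2, 6.12 for Crabp1, -9.19 for Aldh1a1, -7.84 for Aldh1a3 and -2.77 for Cyp26a1, and with rescaled libraries that of Aldh1a2 was 6.31. No paired analysis was possible because each group held 1 sample, and for the same reason no replicate could be left out. Values near 0 FPKM, such as those of Cyp26a1, are limited by a depth that is unknown here.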
